A study of Mus musculus with 12 samples.

Results

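The 10 genes described here encode the enzymes and the carrier that bring long-chain fatty acids into the mitochondrion and oxidise them there: Cpt1a, Cpt1b, Slc25a20 and Cpt2 of the carnitine shuttle, the acyl-CoA dehydrogenases Acadvl, Acadl and Acadm, the trifunctional protein subunits Hadha and Hadhb, and the thiolase Acaa2. They were taken as a named list of this pathway, and their 13 probes are a small part of the 55681 probes on the array. All 13 probes were among the 32121 that were tested, and all were well above background on every one of the 12 arrays. RNA from subcutaneous white adipose tissue (scWAT) and brown adipose tissue (BAT) of mice lacking Lr11 (Sorl1, a sorting receptor of the LDL receptor family) and of wild-type (WT) mice was hybridised to one-colour Agilent arrays, 3 arrays for each genotype in each depot, 12 in all (4 groups). All mice were 12-week-old C57Bl6/J males, the WT mice were littermates of the Lr11-/- mice, and all ate a diet with 60% of its calories from fat, which one label starts at weaning and another gives as 4 weeks. No group was fed another diet, so every difference below is one under high-fat feeding, and no tissue-specific promoter or Cre is named for the deletion. Replicates are numbered here in the order in which the samples are listed, since the labels give them no number. Nothing in the labels ties an array to a separate animal, so the p-values measure the spread between these arrays.

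Long-chain fatty acids cannot cross the inner mitochondrial membrane as CoA esters. Carnitine palmitoyltransferase 1 on the outer membrane makes the acyl-carnitine, the carrier Slc25a20 exchanges it for free carnitine across the inner membrane, Cpt2 restores the acyl-CoA in the matrix, and repeated rounds of dehydrogenation, hydration, a second dehydrogenation and thiolysis then shorten the chain to acetyl-CoA. Cpt1a is known as the liver isoform and Cpt1b as the muscle isoform of the first, malonyl-CoA-inhibited step, and brown adipocytes, which burn fatty acids for heat, are known to carry much of this pathway and to use Cpt1b.

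Promoter windows of 300 bases, from 250 bases before the start of the gene to 50 from it on, were held by the RefSeq table of GRCm38.p6 for 8 of the 10 genes; the genes without one are Cpt1b and Acaa2. Hadha and Hadhb, the pair of genes whose products form one enzyme complex, lie head to head with 272 bases between their starts, and 228 bases are common to both windows. The Hadha window is chr5:30154931-30155230 on the minus strand. The Hadhb window, chr5:30155003-30155302 on the plus strand, is printed first because it shows that shared stretch, in capitals.
Hadhb: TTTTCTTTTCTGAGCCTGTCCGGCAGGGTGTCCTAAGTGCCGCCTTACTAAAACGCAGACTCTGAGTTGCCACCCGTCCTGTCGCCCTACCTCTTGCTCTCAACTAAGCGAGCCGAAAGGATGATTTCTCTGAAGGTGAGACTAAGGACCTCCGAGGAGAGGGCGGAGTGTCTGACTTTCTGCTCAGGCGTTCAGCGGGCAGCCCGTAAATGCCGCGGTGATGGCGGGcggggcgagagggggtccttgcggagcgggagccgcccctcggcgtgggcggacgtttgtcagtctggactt
In the next 3 windows the capitals mark the hexamer AGGTCA, the half-site of many nuclear receptors, on either strand. They are printed because these were the windows of the set that held it, and because one of the genes, Cpt1a, moved against the other members. The Cpt1a window is chr19:3323051-3323350 on the plus strand, with the match starting at base -94 from the gene's start. The Acadvl window is chr11:70015379-70015678 on the minus strand, with the match at -87, and the Acadm window is chr3:153944594-153944893 on the minus strand, with the match at -249.
Cpt1a: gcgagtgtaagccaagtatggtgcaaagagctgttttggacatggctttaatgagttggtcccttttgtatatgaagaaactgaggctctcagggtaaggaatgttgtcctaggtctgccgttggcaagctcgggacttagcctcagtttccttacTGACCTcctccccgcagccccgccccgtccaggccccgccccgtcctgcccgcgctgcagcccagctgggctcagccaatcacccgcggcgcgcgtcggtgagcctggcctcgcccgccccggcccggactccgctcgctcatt
Acadvl: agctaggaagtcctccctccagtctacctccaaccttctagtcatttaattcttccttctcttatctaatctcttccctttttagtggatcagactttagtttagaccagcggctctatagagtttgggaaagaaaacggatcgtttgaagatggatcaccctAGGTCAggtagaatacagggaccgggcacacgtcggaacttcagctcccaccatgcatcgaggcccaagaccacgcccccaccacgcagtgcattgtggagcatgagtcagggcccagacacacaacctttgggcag
Acadm: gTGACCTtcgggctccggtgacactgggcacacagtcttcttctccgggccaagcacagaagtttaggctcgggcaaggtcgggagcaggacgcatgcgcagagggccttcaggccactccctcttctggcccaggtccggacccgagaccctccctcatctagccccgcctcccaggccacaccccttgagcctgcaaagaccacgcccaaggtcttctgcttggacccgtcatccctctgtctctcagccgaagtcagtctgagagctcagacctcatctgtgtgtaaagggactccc
AGGTCA on either strand was in 3 of the 8 windows and in 16.3% of all 32851 windows. No window of the 8 held the estrogen-related receptor element TCAAGGTCA (0.423% of all windows), the DR1 element AGGTCANAGGTCA of the PPARs (0.0396%), the E-box CACGTG (7.15%) or the cAMP response element TGACGTCA (1.79%), searched on both strands. The half-site is contained in the first 2 of these. These matches describe letters in a short window and say nothing about binding.

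A level is given throughout as the log2 intensity of a gene's brightest probe minus the 75th percentile of all probes on the same array, so a value of 5 lies 5 doublings above that percentile. Levels of different probes are not set against each other. A gene is called where its p from limma, adjusted by Benjamini-Hochberg across the 32121 tested probes, was under 0.05. Since the samples are bulk tissue, fewer cells of a type and less RNA per cell cannot be told apart.

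Between 32377 and 37002 of 59305 spots were well above background on an array, and the 75th percentile of intensity ran from 373.7 to 632.4. Some arrays stood apart. The Lr11 probe itself averaged 1.01 ± 0.127 in WT scWAT and -3.33 ± 0.40 in Lr11-/- scWAT, and 0.68 ± 0.55 in WT BAT and -2.96 ± 0.85 in Lr11-/- BAT (SD, n = 3 each), so its level followed the genotype labels in both tissues. Whether the probe lies in the deleted stretch is not given in the sources used here. Lr11-/- scWAT replicates 2 and 3 resembled BAT: over all tested probes their correlation with the mean of the WT BAT arrays was 0.974 and 0.975, against 0.940 for replicate 1, and their summed level of 7 brown adipocyte markers (Ucp1, Cidea, Cox8b, Cox7a1, Elovl3, Dio2 and Ppargc1a) was 3358 and 3640 times the 75th percentile, within or above the 2625 to 3555 of the BAT arrays, against 397.9 on replicate 1 and 1.922 to 262.1 in WT scWAT. All 7 brown markers were well above background on every BAT array. The summed level of 4 white or leptin-secreting adipocyte markers (Lep, Retn, Agt and Nnat) was 8.41 to 352.5 in WT scWAT, 63.7 to 200.9 in Lr11-/- scWAT and 13.2 to 46.2 in BAT, a sum carried mostly by Retn. The median log2 level of the 4 was 1.48 to 2.43 in Lr11-/- scWAT, inside the 0.40 to 2.75 of the BAT arrays. In WT scWAT it was 5.27, -0.73 and 2.15 (replicates 1, 2 and 3), a range that encloses both, and replicate 3 also lay inside the BAT range. WT scWAT replicate 2 was the array least like BAT (r = 0.833) and had the lowest summed level of the 6 general adipocyte markers, 357.9 against 813.6 to 1879 on the other 11 arrays. All 10 skeletal muscle markers were well above background on 5 arrays (WT scWAT replicate 3, Lr11-/- scWAT replicate 1, WT BAT replicates 1 and 3 and Lr11-/- BAT replicate 1), with summed levels of 882.8 to 4958, and their sum was 1.64 to 4.34 on the remaining 7 arrays. Summed macrophage markers (4 of 5 on the array) ran from 29.9 to 131.3 in WT scWAT, 24.8 to 40.4 in Lr11-/- scWAT and 16.2 to 23.5 in BAT, those of the endothelium from 20.1 to 46.3 and of B lymphocytes from 1.85 to 4.16 over all arrays. Summed T lymphocyte markers ran from 5.77 to 9.48 in WT scWAT, 10.9 to 13.5 in Lr11-/- scWAT and 13.9 to 15.6 in BAT. This is the order of groups seen in most members, but the median log2 level of the T lymphocyte list did not keep it. That median was -1.34 to -0.58 in WT scWAT and -0.63 to 0.32 in Lr11-/- scWAT. In BAT it was -1.41 to 0.10 in WT and -2.27 to -0.50 in Lr11-/- mice. Epithelial markers were highest on WT scWAT replicate 3 (10.8) and Lr11-/- scWAT replicate 1 (57.4). The part of these cell types in the results was not tested, and the main counts are also given without the arrays named here.

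The members fall into 1 gene that was highest in WT scWAT, Cpt1a, and 9 whose mean was lowest there. The plot of the levels by array shows both patterns. In WT mice every member differed between the depots: 9 of 10 were called higher in BAT, as were 15.7% of all tested probes, and Cpt1a was called lower, as were 9.13%. In scWAT 7 of 10 were called higher in Lr11-/- mice, against 3.4% of tested probes, with differences of 2.77 to 3.38 log2 units. Between genotypes in BAT 0 of 10 were called, where 0.0187% of tested probes were.

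**Figure D1:**
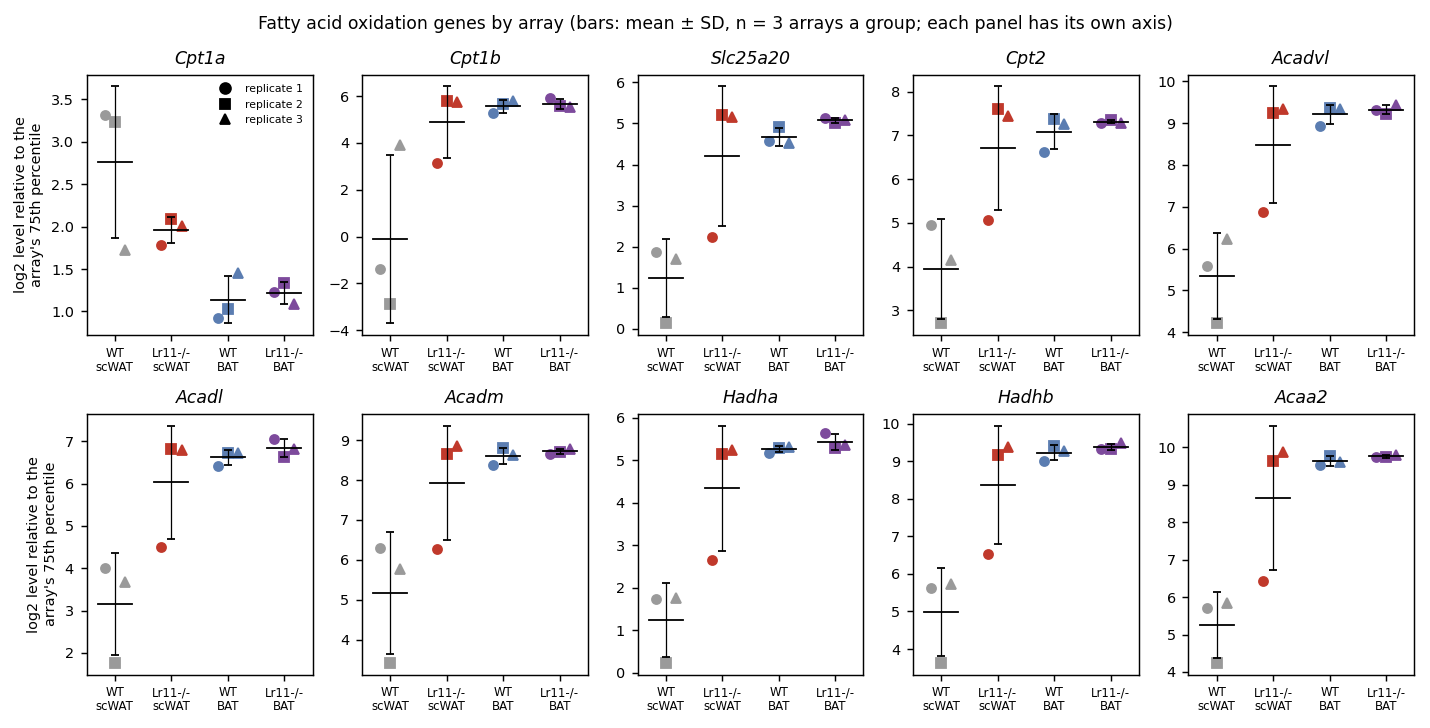
Log2 level of each of the 10 genes relative to the array's 75th percentile (vertical axis, a separate scale in each panel) in the 4 groups of 3 arrays (horizontal axis); symbols are replicates 1 to 3, and bars give the mean and SD. Except for Cpt1a, the 3 WT scWAT arrays lie below all BAT arrays, and Lr11-/- scWAT replicates 2 and 3 lie near the BAT arrays while replicate 1 lies 2.45 below the BAT mean (median over the 10 genes).

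Cpt1a, the liver isoform of the entry step, read 3.32, 3.24 and 1.73 in WT scWAT, 1.79, 2.09 and 2.01 in Lr11-/- scWAT, 0.93, 1.03 and 1.45 in WT BAT and 1.23, 1.34 and 1.08 in Lr11-/- BAT (replicates 1, 2 and 3). WT scWAT replicates 1 and 2 were the highest of the 12 arrays, WT scWAT replicate 3 lay below all 3 Lr11-/- scWAT arrays, and no BAT array reached any scWAT array. In WT mice Cpt1a fell by 1.62 on the log2 scale from scWAT to BAT, a 3.08-fold lower level (SE 0.37, limma adjusted p = 0.013). This call was lost without WT BAT replicate 1 or 2 (limma adjusted p = 0.0503 and 0.053). In scWAT the Lr11-/- mean was 0.80 below the WT mean (95% interval of the difference -1.62 to 0.02, limma adjusted p = 0.191), which did not pass. This probe is spotted 10 times on each array, and the SD between the spots of an array was 0.032 to 0.0814. The other Cpt1a probe gave -0.68 for the genotype difference in scWAT and -1.19 for BAT against scWAT in WT, with the same calls.

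Cpt1b, the muscle isoform, read -1.40, -2.90 and 3.93 in WT scWAT, 3.13, 5.80 and 5.75 in Lr11-/- scWAT, 5.26, 5.65 and 5.81 in WT BAT and 5.92, 5.57 and 5.53 in Lr11-/- BAT. It had the widest spread of the 10 genes in WT scWAT (SD 3.59, n = 3), where replicate 3 lay far above the others and above Lr11-/- scWAT replicate 1, so the genotypes overlapped. The arrays on which Cpt1b was intermediate, WT scWAT replicate 3 and Lr11-/- scWAT replicate 1, were those with the highest summed level of the skeletal muscle markers, 4958 and 4500, and they also carried brown adipocyte markers at 262.1 and 397.9. The mean was 5.02 higher in Lr11-/- scWAT (SE 1.40, 95% interval 1.93 to 8.10, limma adjusted p = 0.06), not called, whereas its other probe was 4.46 higher (SE 1.07, limma adjusted p = 0.0449) and was called. Without the 5 arrays with muscle markers above background the difference of the brighter probe was 7.92 and was called. In WT mice Cpt1b was 5.69 higher in BAT than in scWAT (51.8-fold, SE 1.40, limma adjusted p = 0.0165), with no overlap between the depots. That difference was 4.31 without WT scWAT replicate 2 (limma adjusted p = 0.0506), 5.06 without replicate 1 and 7.72 without replicate 3. With WT BAT replicate 2 left out it was 5.66 and not called (limma adjusted p = 0.0592).

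Slc25a20, the carnitine-acylcarnitine translocase, read 1.87, 0.13 and 1.70 in WT scWAT, 2.23, 5.20 and 5.16 in Lr11-/- scWAT, 4.56, 4.92 and 4.53 in WT BAT and 5.14, 5.01 and 5.07 in Lr11-/- BAT. Lr11-/- scWAT replicate 1 exceeded the highest WT scWAT array by a margin of 0.36, and replicates 2 and 3 were the highest of all 12 arrays. Its level was 2.97 higher in Lr11-/- than in WT scWAT (7.82-fold, SE 0.71, limma adjusted p = 0.045) and 3.44 higher in WT BAT than in WT scWAT (SE 0.71, limma adjusted p = 0.00901). It was the member with the largest genotype difference in BAT, 0.41 (95% interval -1.17 to 1.99), not called although the 3 Lr11-/- arrays lay above the 3 WT arrays.

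Cpt2, the inner-membrane transferase, read 4.96, 2.70 and 4.15 in WT scWAT, 5.07, 7.60 and 7.44 in Lr11-/- scWAT, 6.62, 7.37 and 7.26 in WT BAT and 7.29, 7.34 and 7.29 in Lr11-/- BAT. The genotypes just failed to meet in scWAT, since Lr11-/- replicate 1 exceeded WT replicate 1 by a difference of 0.12. The difference between the means was 2.77 (6.81-fold, SE 0.68, limma adjusted p = 0.0464), and the other Cpt2 probe gave 3.24 (SE 0.77, limma adjusted p = 0.0439). Between the depots of WT mice Cpt2 differed by 3.15, the smallest rise of the 9 genes higher in BAT (limma adjusted p = 0.0103).

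The acyl-CoA dehydrogenases take the first step of each round, for very long, long and medium chains. Acadvl read 5.57, 4.21 and 6.24 in WT scWAT, 6.87, 9.24 and 9.34 in Lr11-/- scWAT, 8.94, 9.36 and 9.34 in WT BAT and 9.32, 9.22 and 9.44 in Lr11-/- BAT. Acadl read 4.00, 1.77 and 3.69 in WT scWAT, 4.50, 6.81 and 6.80 in Lr11-/- scWAT, 6.41, 6.73 and 6.72 in WT BAT and 7.06, 6.63 and 6.83 in Lr11-/- BAT. Neither overlapped between the genotypes in scWAT, and on both WT scWAT replicate 2 was the lowest array. Acadvl was 3.14 higher in Lr11-/- scWAT (8.83-fold, SE 0.64, limma adjusted p = 0.0373) and Acadl 2.88 higher (7.38-fold, SE 0.66, limma adjusted p = 0.0423). Acadm, the medium-chain enzyme, read 6.30, 3.43 and 5.77 in WT scWAT, 6.28, 8.66 and 8.85 in Lr11-/- scWAT, 8.38, 8.80 and 8.63 in WT BAT and 8.65, 8.71 and 8.79 in Lr11-/- BAT. Its Lr11-/- scWAT replicate 1 fell within the WT range, and the difference of 2.77 was not called (95% interval 1.08 to 4.45, limma adjusted p = 0.0585). In WT mice all 3 dehydrogenases were higher in BAT, by 3.87, 3.47 and 3.44 in the order Acadvl, Acadl, Acadm (limma adjusted p = 0.00454, 0.00682 and 0.0115).

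Hadha and Hadhb encode the alpha and beta subunits of the trifunctional protein, which carries out the last 3 steps of a round on long chains. Hadha read 1.72, 0.24 and 1.76 in WT scWAT, 2.65, 5.15 and 5.23 in Lr11-/- scWAT, 5.18, 5.28 and 5.31 in WT BAT and 5.65, 5.29 and 5.37 in Lr11-/- BAT. Hadhb read 5.62, 3.64 and 5.72 in WT scWAT, 6.54, 9.17 and 9.38 in Lr11-/- scWAT, 9.01, 9.40 and 9.28 in WT BAT and 9.32, 9.33 and 9.47 in Lr11-/- BAT. Both put the 6 scWAT arrays in the same order, and over the 12 arrays, which share depots and genotypes, the Pearson correlation of this head-to-head pair was 0.9964. Hadha was 3.10 higher in Lr11-/- scWAT (8.58-fold, SE 0.63, limma adjusted p = 0.037) and Hadhb 3.37 higher (10.3-fold, SE 0.72, limma adjusted p = 0.0393), with no overlap of the genotypes. From scWAT to BAT in WT mice they rose by 4.01 and 4.24 (limma adjusted p = 0.00398 and 0.00471).

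Acaa2, the thiolase that releases acetyl-CoA from medium and shorter chains, read 5.72, 4.25 and 5.83 in WT scWAT, 6.42, 9.64 and 9.88 in Lr11-/- scWAT, 9.53, 9.78 and 9.60 in WT BAT and 9.74, 9.73 and 9.81 in Lr11-/- BAT. Lr11-/- scWAT replicate 3 was the highest array of the series for this gene, and replicate 1 stayed far below every BAT array. Acaa2 had the largest called difference between genotypes in scWAT, 3.38 (10.4-fold, SE 0.77, limma adjusted p = 0.0422), and 4.37 between the depots of WT mice (20.7-fold, SE 0.77, limma adjusted p = 0.00522). Its probe is also spotted 10 times, with an SD within an array of 0.0237 to 0.0774, against an SD of 1.93 between the 3 Lr11-/- scWAT arrays.

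No member was called lower between genotypes in scWAT, where 1.87% of tested probes were, and 5.27% were called in either direction. The 7 members called higher were also those whose groups did not overlap, against 11.7% of tested probes with all Lr11-/- arrays above all WT arrays. The members' median difference was 3.03, and that of all tested probes 0.04. At an unadjusted p under 0.05 the count was 9 of 10, against 27.6% of tested probes. Adjusted p-values of the called members lay between 0.037 and 0.0464, close to the threshold, and the calls depended on single arrays. In 9 of the 12 fits that each left out 1 array, 0 members were called, namely without WT scWAT replicate 2, without Lr11-/- scWAT replicate 2 or 3 and without any 1 of the 6 BAT arrays. In these fits 0.0525% to 0.764% of all tested probes were called. No BAT array enters the scWAT difference, whose median stayed at 3.03 without any 1 of them. Since limma takes 1 spread per gene from all 4 groups, these p-values also rest on the BAT arrays. With only the scWAT arrays fitted, 0 members and 0% of tested probes were called. In all 12 fits that left out 1 array, 9 or 10 members had an unadjusted p under 0.05. The share of all tested probes at that p was 27.6% in the main fit and was not worked out for these fits. The count of called members was 8 when WT scWAT replicate 1 was left out (13.8% of tested probes), 9 for Lr11-/- scWAT replicate 1 (19.6%) and 10 for WT scWAT replicate 3 (14.6%). The members' count thus moved with that of the whole array. Leaving out WT scWAT replicate 2 took the median difference to 2.50. It was 3.95 with Lr11-/- scWAT replicate 1 left out. With Lr11-/- scWAT replicates 2 and 3 both left out, replicate 1 alone against WT gave a median difference of 1.25.

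The titles of the arrays carry 2 different prefixes, here called series without a statement of what they stand for, with replicate 1 of each group in the first and replicates 2 and 3 in the second. With the series as a block 4 members stayed called in scWAT (Acadvl, Hadha, Hadhb and Acaa2; 4.03% of tested probes), and with the slide as a block 2 (2.84%). Within the first series, which has 1 array a group and allows no test, the members' median difference in scWAT was 0.60, with -1.53 for Cpt1a, -0.02 for Acadm, 0.12 for Cpt2 and 4.53 for Cpt1b. Within the second series the median was 4.17 and 8 members were called, all but Cpt1a (-0.44) and Cpt1b (5.26), where 21.7% of tested probes were. Without the 5 arrays with muscle markers above background 9 were called, 8 higher and Cpt1a lower, where 9.82% of tested probes were.

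In BAT, besides the 0 members called by limma between genotypes, 0 of 10 had an unadjusted p under 0.05 (2.12% of tested probes). Differences ran from 0.08 for Cpt1a to 0.41 for Slc25a20, with a median of 0.14. The widest 95% interval was that of Cpt1b, -2.98 to 3.19, and the narrowest that of Cpt1a, -0.74 to 0.90. Differences within these bounds are not excluded. The intervals take 1 spread per gene from all 4 groups, so they do not measure the spread of the BAT arrays alone. For Cpt1b the SD was 3.59 in WT and 1.52 in Lr11-/- scWAT, against 0.28 in WT and 0.22 in Lr11-/- BAT. A limma fit of the BAT arrays alone also called 0 members (0.0872% of tested probes). Only Slc25a20 had groups that did not overlap, as did 7.39% of tested probes with the Lr11-/- arrays higher. How far the effect of genotype in scWAT exceeded that in BAT, 2.79 at the median, was tested itself: 0 of 10 members were called (0% of tested probes; limma adjusted p from 0.397 for Acadvl to 0.544 for Cpt1a), whereas 9 of 10 had an unadjusted p under 0.05, against 11% of tested probes. Leaving out Lr11-/- scWAT replicate 1 gave 7 called members (3.77% of tested probes) and leaving out WT scWAT replicate 3 gave 1 (0.871%).

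**Figure D2:**
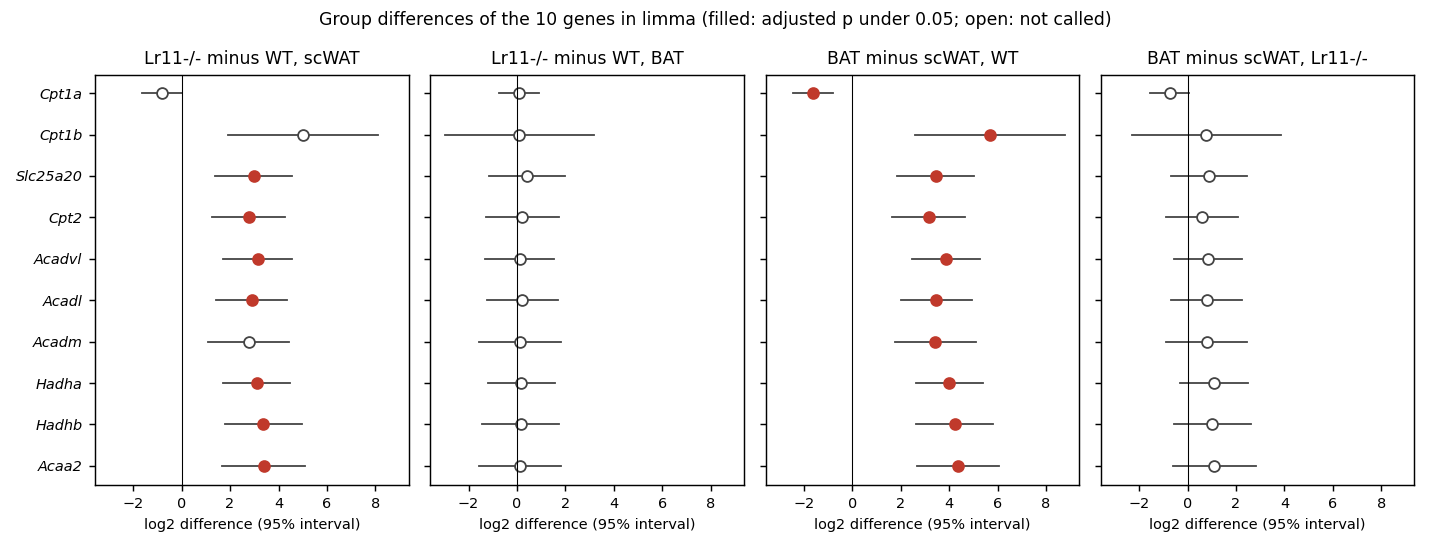
Difference between group means on the log2 scale with its 95% interval (horizontal axis) for each of the 10 genes (vertical axis) in 4 comparisons from 1 limma fit of 12 arrays; filled points have an adjusted p under 0.05. In scWAT 7 genes are called higher in Lr11-/- mice, and in BAT none is called. Between the depots all 10 genes are called in WT mice and none is called in Lr11-/- mice. In Lr11-/- mice 9 of the 10 means are nevertheless higher in BAT. The comparisons share groups of arrays.

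Between the depots of WT mice all 10 members were called (24.8% of tested probes). The groups did not overlap for any of the 10, against 40.2% of tested probes in either direction. The median difference was 3.67 and that of all tested probes 0.07. Cpt1b, Acaa2, Hadhb and Hadha had the largest differences, 5.69, 4.37, 4.24 and 4.01. Between 8 and 10 members were called when any 1 array was left out, where 9.47% to 32% of tested probes were. The median difference was 3.10 without WT scWAT replicate 2. Without the 5 arrays with muscle markers above background, which leave 1 WT BAT array, 7 were called (6.95% of tested probes).

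Between the depots of Lr11-/- mice 0 of 10 members were called (0.0405% of tested probes) and 0 had an unadjusted p under 0.05 (9% of tested probes), with a median difference of 0.82. The groups did not overlap for Hadha, higher in BAT by 1.09 (95% interval -0.30 to 2.48; 14% of tested probes lay apart with BAT higher), and for Cpt1a, with a difference of -0.74 (-1.57 to 0.08; 9.19% lay apart with BAT lower). These values joined arrays of different kinds. Lr11-/- scWAT replicate 2 had 6 and replicate 3 had 5 of the 10 members within the range of the 6 BAT arrays. Their medians lay 0.04 and 0.15 above the BAT mean, and Cpt1a stayed 0.91 and 0.83 above it. Replicate 1 had none within that range and lay 2.45 below at the median, nearer to the WT scWAT arrays, which lay 3.31, 5.08 and 3.05 below. With replicates 2 and 3 left out, so that only replicate 1 stood for Lr11-/- scWAT, the median depot difference in Lr11-/- mice was 2.50. Without replicate 1 it was -0.02, with 5 members higher in BAT and 5 lower. Against WT BAT, Lr11-/- scWAT likewise had 0 called members (0.0965% of tested probes) and a median difference of 0.68, which turned to -0.17 without Lr11-/- scWAT replicate 1 (1 member higher in WT BAT and 9 lower). Cpt1a alone did not overlap, with WT BAT lower (8.25% of tested probes) and alone had an unadjusted p under 0.05 (0.0497, limma adjusted p = 0.622; 8.02% of tested probes). The Lr11-/- scWAT arrays serve in several of these comparisons, which are therefore not independent.

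**Figure D3:**
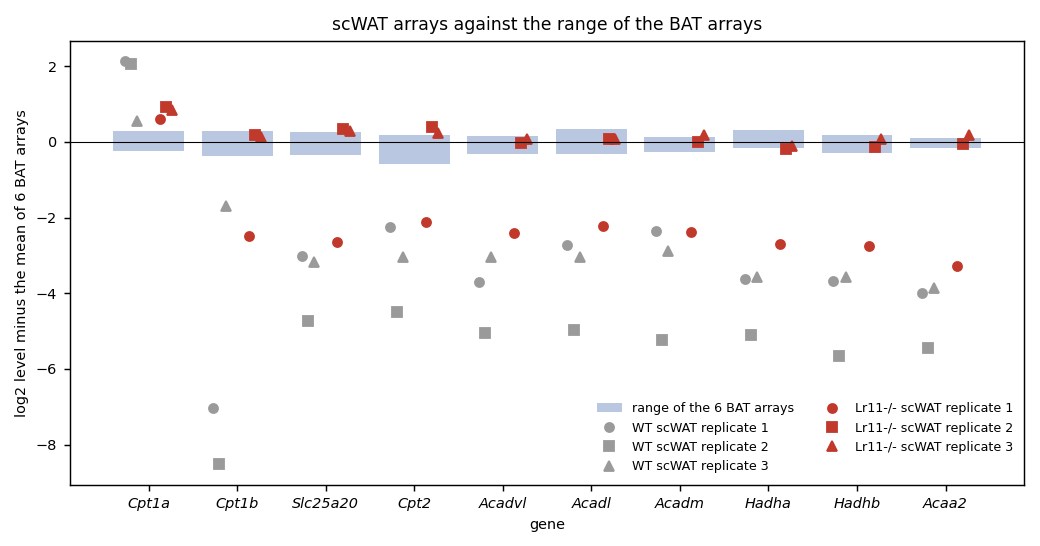
Log2 level of each gene on the 6 scWAT arrays minus the mean of the 6 BAT arrays (vertical axis) for the 10 genes (horizontal axis), with the range of the BAT arrays as a band. Lr11-/- scWAT replicates 2 and 3 lie in or beside the band for 9 genes and above it for Cpt1a, replicate 1 lies 2.45 below the mean at the median over genes, and WT scWAT replicate 2 is the lowest array for all genes but Cpt1a, 5.08 below at the median.

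The isoforms of the entry step were set against each other within each array, which shows unequal change and not which isoform is more abundant. Cpt1b minus Cpt1a was -4.71, -6.13 and 2.20 in WT scWAT, 1.35, 3.71 and 3.74 in Lr11-/- scWAT, 4.33, 4.62 and 4.36 in WT BAT and 4.69, 4.23 and 4.45 in Lr11-/- BAT. The BAT arrays of both genotypes lay together above all scWAT arrays, and WT scWAT replicate 3, with muscle markers, lay between Lr11-/- scWAT replicates 1 and 2. Group means differed by 5.82 between genotypes in scWAT (two-sided exact permutation p = 0.2), by 0.02 in BAT (exact permutation p = 1), by 7.32 between depots in WT, by 1.53 between depots in Lr11-/- mice and by 1.50 between WT BAT and Lr11-/- scWAT (exact permutation p = 0.1 for each of the last 3). The smallest p that 3 arrays against 3 allow is 0.1, so none of the 5 comparisons could pass 0.05; adjusted over the 5, the exact permutation p-values were 0.25, 1 and 0.167 for the last 3.

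**Figure D4:**
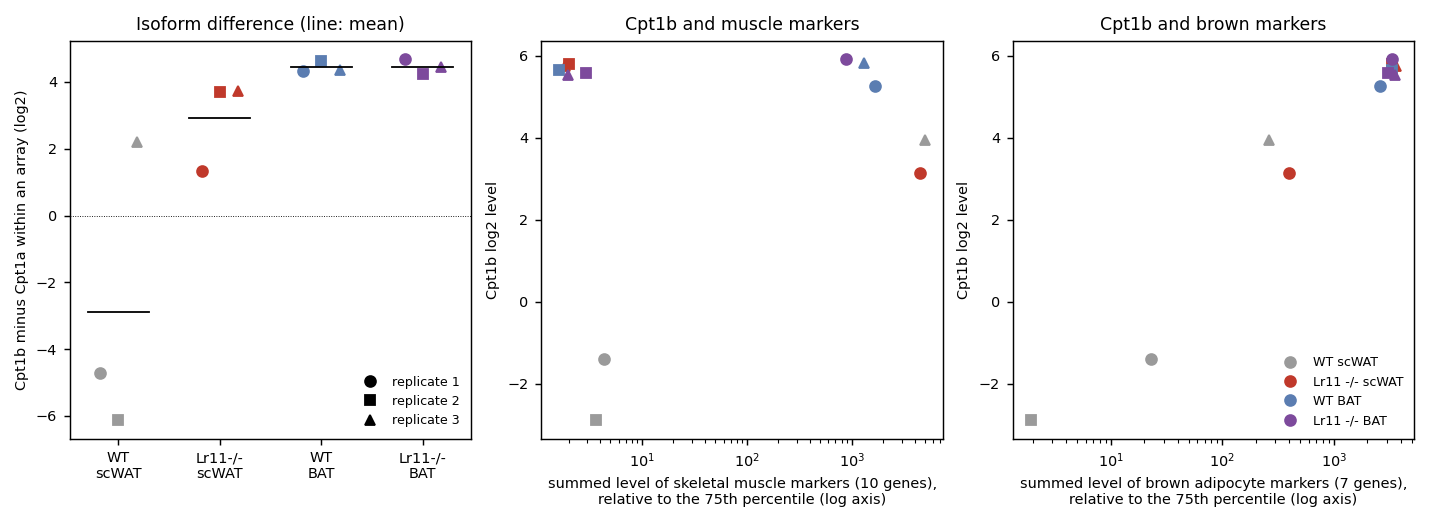
Left, Cpt1b minus Cpt1a within each array (log2, vertical axis) in the 4 groups, with lines at the means; middle and right, the Cpt1b level (log2, vertical axis) against the summed level of 10 skeletal muscle markers and of 7 brown adipocyte markers (log axes), 1 point per array. Of the 7 arrays with low muscle sums, the WT scWAT arrays have the lowest Cpt1b levels (-1.40 and -2.90) and the other 5 lie between 5.53 and 5.80, and the same WT scWAT arrays have the lowest brown marker sums.

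Among themselves the 9 members other than Cpt1a had Pearson correlations of 0.8644 to 0.9972 over the 12 arrays (36 pairs), the lowest of them with Cpt1b, and Cpt1a had correlations of -0.8739 to -0.6753 with them. The points share depot, genotype and array series, so these values are a description. The 5 named genes outside the set whose levels were most like the members' mean were Suclg1, a subunit of succinyl-CoA synthetase (r = 0.9976), Cox4i1 of cytochrome c oxidase (0.9971), Idh3g of isocitrate dehydrogenase (0.9971), Mtch2, a protein of the outer mitochondrial membrane (0.9969), and Ndufa9 of complex I (0.9963). Suclg1 averaged 3.86 ± 1.26 in WT scWAT, 7.17 ± 1.54 in Lr11-/- scWAT, 7.87 ± 0.18 in WT BAT and 8.21 ± 0.05 in Lr11-/- BAT (SD, n = 3).

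The rest of the pathway was read from 18 further genes of fatty acid oxidation, all tested. Between genotypes in scWAT 7 were called higher (3.4% of tested probes) and 0 lower (1.87%), with a median difference of 2.49. The 2 with the largest called rise were Acot2, a mitochondrial acyl-CoA thioesterase (3.75, 13.4-fold, SE 0.76, limma adjusted p = 0.0372), and Eci1, an enoyl-CoA isomerase for unsaturated chains (3.16, SE 0.72, limma adjusted p = 0.0422), and the others were Acads, Echs1, Etfa, Etfb and Etfdh, the short-chain dehydrogenase, the short-chain hydratase and the electron transfer flavoprotein with its oxidoreductase. In BAT 0 of 18 were called between genotypes (0.0187% of tested probes), and between the depots of Lr11-/- mice 0 of 18 (0.0405%), with medians of 0.21 and 0.59. Between the depots of WT mice 16 were called higher in BAT (15.7% of tested probes), led by Eci1 (3.65) and Etfdh (3.59). The 1 called lower (9.13% of tested probes) was Cpt1c, the isoform known from brain (fell by 1.92, SE 0.47, limma adjusted p = 0.016). Acad9, which also serves complex I assembly, was 1.34 higher and not called (limma adjusted p = 0.064). Cpt1c also went against the list between genotypes in scWAT, with -1.53 (limma adjusted p = 0.0746), not called. Acot2 read 0.83, 3.80 and 3.35 in Lr11-/- scWAT, 1.05 to 1.99 in WT BAT and 1.73 to 2.05 in Lr11-/- BAT, so that replicates 2 and 3 of Lr11-/- scWAT lay above all 6 BAT arrays. These replicates also exceeded every BAT array, by smaller margins, for Decr1 (9.14 and 9.12, BAT up to 8.83), Eci2, Etfb, Acat1 and Acacb. Among the members the same held for Cpt2 and Slc25a20. The mean difference of Acot2 between depots in Lr11-/- mice, -0.78, ran against that of most of the list and was not called (limma adjusted p = 0.772), nor was that of Cpt1c, -0.05. Acot2 has close relatives among the acyl-CoA thioesterases, and whether its probe also reads them was not tested.

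**Figure D5:**
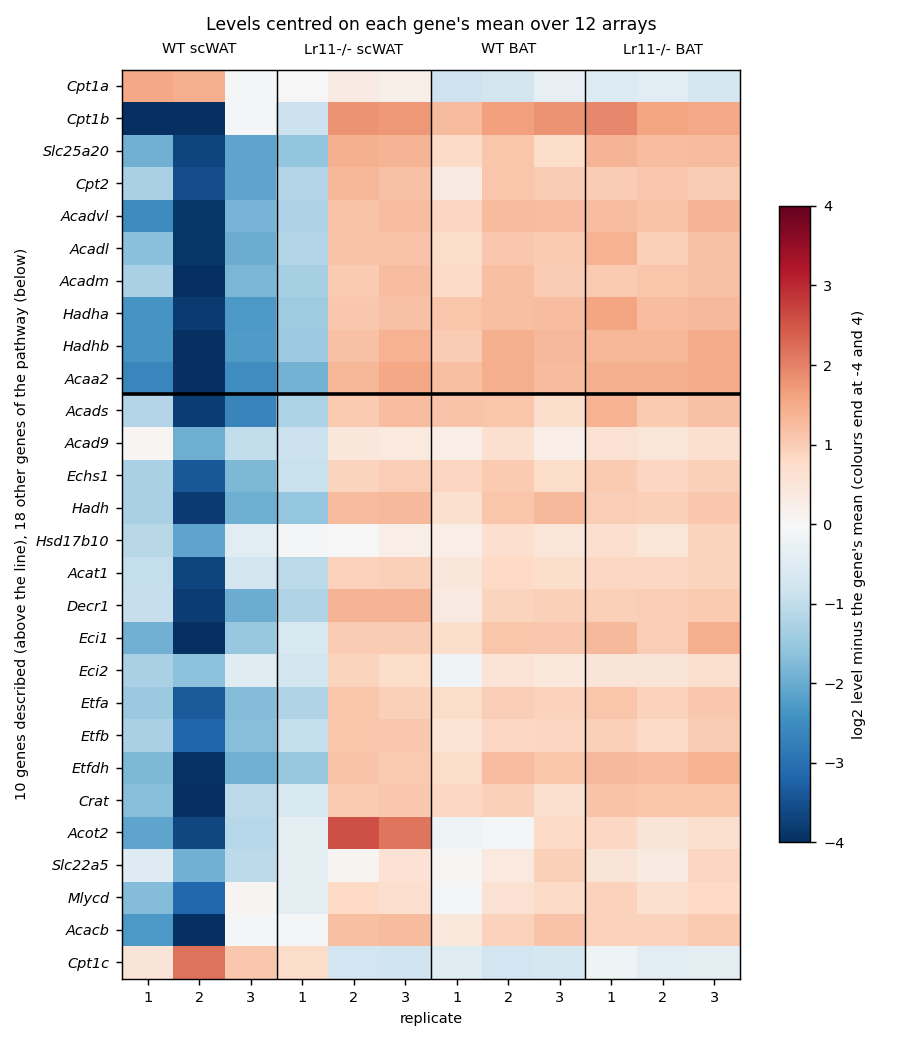
Log2 level of each gene minus its mean over the 12 arrays (colour, ending at -4 and 4) for the 10 members above the line and the 18 other genes of the pathway below it (vertical axis), by array in 4 groups of 3 replicates (horizontal axis). WT scWAT replicate 2 is the lowest array for most genes, Lr11-/- scWAT replicates 2 and 3 have colours near those of BAT except for Acot2, and Cpt1a and Cpt1c run the other way.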

How the data were processed

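The deposited intensity values are Agilent Feature Extraction's processed signals (gProcessedSignal, version 10.10.1.1 per the file headers), made by the authors from total RNA labelled with Cy3. Control spots and outlier spots were left out, spots of a probe were averaged, each array's 75th percentile of log2 intensity was subtracted, and probes well above background on every array of at least 1 group were tested. A group mean was fitted for each of 4 groups over all 12 arrays in limma 3.58.1 (R 4.3.3, data.table version 1.17.8) with Benjamini-Hochberg adjustment over 32121 probes, and was tested on simulated data. Array number limits the precision. Probes were named by matching their accessions to RefSeq genes (27235 of 28685 RefSeq probes). Each of the 10 members was read from its brightest tested probe. Named besides the members were Lr11, the 2 largest called rises and falls among 18 other pathway genes and those that ran against the list, and the 5 genes most correlated with the members' mean. The members and lists were chosen with earlier results of these data known. Alternatives changed scaling, background, filter, outliers, blocks, weights, variance model, samples and probe, and left out each array. Added after seeing the data were fits without the 5 arrays carrying muscle markers, with the muscle list as a covariate and without Lr11-/- scWAT replicates 2 and 3. The deposited value matrix held the same values as the scanner files and was not used further.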

Additional observations from a re-analysis of the deposited data

How the results depend on the processing

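All 10 members kept their direction in scWAT between genotypes and in WT mice between depots under every setting tried, except Acadm between genotypes in the first array series alone (-0.02, no test), but the number called between genotypes in scWAT did not hold. The main fit called 7 members and 7 other pathway genes there (5.27% of tested probes). No scaling gave 4 and 1 (2.61%), array series as a block 4 and 2 (4.03%), and slide as a block 2 and 1 (2.84%). No filter on dim probes gave 0 and 0 (0.271%), with 9 members at an unadjusted p under 0.05. A limma fit of only the groups compared gave 0 and 0 (0%), with 9 members unadjusted. The share of all tested probes at that unadjusted p was 27.6% in the main fit and was not worked out for these fits. Without Lr11-/- scWAT replicates 2 and 3 the members' median difference was 1.25. Median scaling gave 6 and 4 (3.4%), array weights 9 and 15 (12.6%), and the second array series alone 8 and 15 (21.7%). Leaving out 1 array gave 0 to 10 members and 0 to 16 other genes (0.0525% to 19.6%). Between depots in WT, leaving out 1 array gave 8 to 10 members and 7 to 18 other genes (9.47% to 32% of tested probes), in place of 10 and 17. The slide as a block gave 7 and 8 (12.4%), and only the groups compared 8 and 9 (12.2%). In the first array series the scWAT arrays were on slide 1 and the BAT arrays on slide 3. Without the 5 muscle arrays, which leave 1 WT BAT array, the members' median difference was 4.12. Between depots in Lr11-/- mice array weights gave 1 member and 2 other genes, where 17% of tested probes were called. Without Lr11-/- scWAT replicates 2 and 3 the members' median difference in this comparison was 2.50. Between WT BAT and Lr11-/- scWAT array weights gave 1 member and 1 other gene, where 15.6% of tested probes were called. The members' median difference without Lr11-/- scWAT replicates 2 and 3 was 2.39 here. For the difference of the genotype effects array weights gave 9 and 12 (4.75% of tested probes) and the second series alone 4 and 1 (2.57%). Leaving out 1 array gave 0 to 7 and 0 to 8 there (0% to 3.77%). The genotype difference of Cpt1a in BAT, 0.08, turned to -0.0301 in the second series, -0.0529 as a mean of probes and -0.0662 with the muscle covariate, and ran from -0.0234 to 0.24 with 1 array left out. That of Cpt1b, 0.10, turned to -0.18 in the second series and -0.10 without the muscle arrays, and ran from -0.0542 to 0.22. Between genotypes in BAT, between depots in Lr11-/- mice and between WT BAT and Lr11-/- scWAT, 21 of 30 member values changed sign under at least 1 tested setting; in the difference of the genotype effects 0 of 10 did, but 4 (Cpt2, Slc25a20, Acadm and Acadl) were below 0 in the first array series alone. The median of all probes between genotypes in scWAT was 0.17 with median scaling (members 3.16) and -0.20 without scaling (members 2.79). The cause of these changes was not tested. No paired analysis was possible because the labels give no replicate numbers; those used here follow the order of the samples. Members were well above background on all arrays, so signal over background did not limit them.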
